A study of Mus musculus with 12 samples.

Results

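The genes described here encode the parts of the sarcomere, the contractile unit of striated muscle, together with their fibre-type isoforms and their smooth muscle and non-muscle relatives. They were taken by symbol from the protein-coding rows: the numbered Myh, Myl, Tnnc, Tnni, Tnnt, Tpm, Actn, Myoz, Mybpc, Casq and Atp2a genes, plus Mylpf, Acta2, Neb, Ttn, Ckm, Mb and Pvalb. The rule found 59 of the 34303 gene symbols in the table, and it used no expression value. Acta1, which the rule also names, is not analysed here. By textbook role, 14 members are fast-fibre genes, 10 are slow-fibre genes and 9 are grouped as genes of all striated fibres. The class of 9 is loose, as it holds Tpm3, whose gene gives a slow-fibre and a cytoskeletal tropomyosin. Another 12 are developmental, cardiac or specialised isoforms, 3 are smooth muscle genes and 11 are non-muscle genes.

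RNA sequencing covered 12 libraries of C57Bl6 mice in 4 groups. The tumours were cutaneous squamous cell carcinomas (cSCC), 2 from wild-type (WT) and 4 from TAp63-/- animals. These animals were older than 35 weeks and were exposed 3 times weekly to ultraviolet light, at a dose of 2.5 kJ/m2. WT skin (n = 3) and TAp63-/- skin (n = 3) were untreated dorsal skin of shaved mice aged 4 weeks. TAp63-/- animals lack the p63 isoforms with the N-terminal transactivation domain, and TAp63 isoforms cannot be read from values given per gene. Tumour and skin therefore differed in tissue, age and ultraviolet exposure, which cannot be told apart here. Sex, as read below, also moved with tissue. The titles name all tumour libraries LM and all skin libraries Su, and the labels do not say what these names stand for. Each library has a number of its own in its title, but the labels do not state that these are separate animals, so p-values measure the spread between these samples, which may be technical.

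Mouse skin lies on a thin sheet of striated muscle, the panniculus carnosus, and full-thickness samples can include it. In a striated fibre, myosin heavy and light chains form the thick filament, and actin with tropomyosin and the troponin complex forms the calcium-regulated thin filament. Fast and slow fibres use different genes for most of these parts and for the calcium pump and calsequestrin of the sarcoplasmic reticulum. Non-muscle myosin, alpha-actinin and tropomyosin isoforms work in the cytoskeleton of most cells, keratinocytes included.

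The adult fast myosin heavy chains lie side by side on chromosome 11 of mm10, on the plus strand: Myh2 (type IIa, chr11:67171027-67197517), Myh1 (type IIx, chr11:67200052-67224575) and Myh4 (type IIb, chr11:67238029-67260446). The embryonic gene Myh3 (chr11:67078300-67102291) precedes them, and the perinatal gene Myh8 (chr11:67277124-67308634) and the extraocular gene Myh13 (chr11:67321658-67371586) follow. The promoters of the 3 adult fast genes are printed because their proportions differed between libraries. They are RefSeq windows of GRCm38.p6 (the mm10 build) on the plus strand, cut before the start of the gene in every annotation used. They run 5′ to 3′ over chr11:67170777-67171026 for Myh2, chr11:67199852-67200051 for Myh1 and chr11:67237562-67237811 for Myh4. Capitals mark the longest stretch that is identical in all 3.
Myh2: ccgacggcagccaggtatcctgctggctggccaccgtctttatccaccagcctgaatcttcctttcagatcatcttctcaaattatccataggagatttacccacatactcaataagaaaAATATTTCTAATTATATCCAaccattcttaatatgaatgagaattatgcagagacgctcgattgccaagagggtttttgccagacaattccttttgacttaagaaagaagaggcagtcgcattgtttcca
Myh1: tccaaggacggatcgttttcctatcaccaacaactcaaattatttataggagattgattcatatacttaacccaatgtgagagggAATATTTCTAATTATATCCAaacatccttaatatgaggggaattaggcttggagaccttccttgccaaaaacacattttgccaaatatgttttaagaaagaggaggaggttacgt
Myh4: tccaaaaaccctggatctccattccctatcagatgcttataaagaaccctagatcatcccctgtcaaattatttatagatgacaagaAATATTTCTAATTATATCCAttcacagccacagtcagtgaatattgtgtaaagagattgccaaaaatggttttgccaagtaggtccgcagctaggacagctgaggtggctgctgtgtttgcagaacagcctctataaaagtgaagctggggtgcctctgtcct
The stretch in capitals is 20 bases long and starts 130 bases before the RefSeq start of Myh2, 165 before that of Myh1 and 163 before that of Myh4. Of 32851 RefSeq promoter windows of 250 bases, 3 held it on either strand, those of these genes. GC content was 41.2%, 36% and 42% in the printed windows of Myh2, Myh1 and Myh4. Both strands were searched for the E-box (CANNTG), the CArG box, the MEF2 site in its strict palindromic form and TATAAA, with overlapping matches counted. The Myh4 window held 2 E-boxes, 1 CArG box and 3 matches to TATAAA, the Myh1 window held 1 TATAAA, and the Myh2 window held none of these. In a looser form of the MEF2 site, with any pyrimidine first and any purine last, searched after the strict form, the Myh1 and Myh4 windows each held 1 match and the Myh2 window 0. Promoters were matched for 51 of the 59 members. An E-box lay within 250 bases before the start in 82.4% of those 51 and in 66.2% of all 32851 promoters. The corresponding shares were 7.84% and 1.47% for the CArG box, 5.88% and 0.508% for the strict MEF2 site, 15.7% and 2.92% for the looser one, and 17.6% and 12.4% for TATAAA. The shares of the CArG box and the strict MEF2 site rest on 4 and 3 members. Of the 10 matched fast genes, 70% held an E-box, 10% a CArG box and 0% the strict MEF2 site. The looser MEF2 site and TATAAA were each held by 30% of them. Matched starts lay up to 16356 bases from the listed gene start (Tnni1). These motif counts are matches of letters, and no binding was measured.

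The unit is FPKM, in which fragment counts are divided by transcript length and by library size, which allows levels of different genes to be compared. Every library followed nearly the same distribution of values, and the read depth is unknown. Genes at 1 FPKM or more in at least 2 libraries were tested: 14752 genes, with 52 of the 59 members among them. Myh7, Myh3, Myh7b, Myh6, Myl10, Myh15 and Mybpc3 did not pass. Myh13, Myh8, Myl2 and Myl3 passed through skin libraries alone and Myl7 and Tnni3 through cSCC libraries alone, so the counts and medians over classes are descriptions. Changes are limma log2 differences on log2(FPKM + 1), which understates the change of low genes, and a gene is said to have risen or fallen at a Benjamini-Hochberg adjusted p below 0.05 over all tested genes. As read from Xist and Y-linked genes, the 6 skin libraries were male and 5 of the 6 cSCC libraries female, so sex moves with tissue. Fits with sex as a covariate are given beside the counts. Their sex term rests on the 1 male cSCC library, so they cannot separate sex from anything else particular to that tumour.

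In untreated skin the fast-fibre program was expressed at high levels. The 14 fast genes summed to 12272, 12454 and 12570 FPKM in WT skin and to 19394, 14034 and 12416 FPKM in TAp63-/- skin, between 1.57% and 2.49% of all FPKM. Slow genes summed to 171.8 to 270.2 FPKM in the same 6 libraries. In cSCC the fast genes summed to 205.6 and 1179.9 FPKM in the WT tumours and to 563, 465, 86.7 and 117 FPKM in the TAp63-/- tumours. No tumour reached the lowest skin library, and in proportion to their level the tumours spread more widely than the skin libraries. WT cSCC replicate 2 was the highest tumour for 13 of the 14 fast genes, and TAp63-/- cSCC replicate 3 the lowest for 8. In these bulk samples fewer muscle cells and less RNA per muscle cell cannot be told apart.

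**Figure D1:**
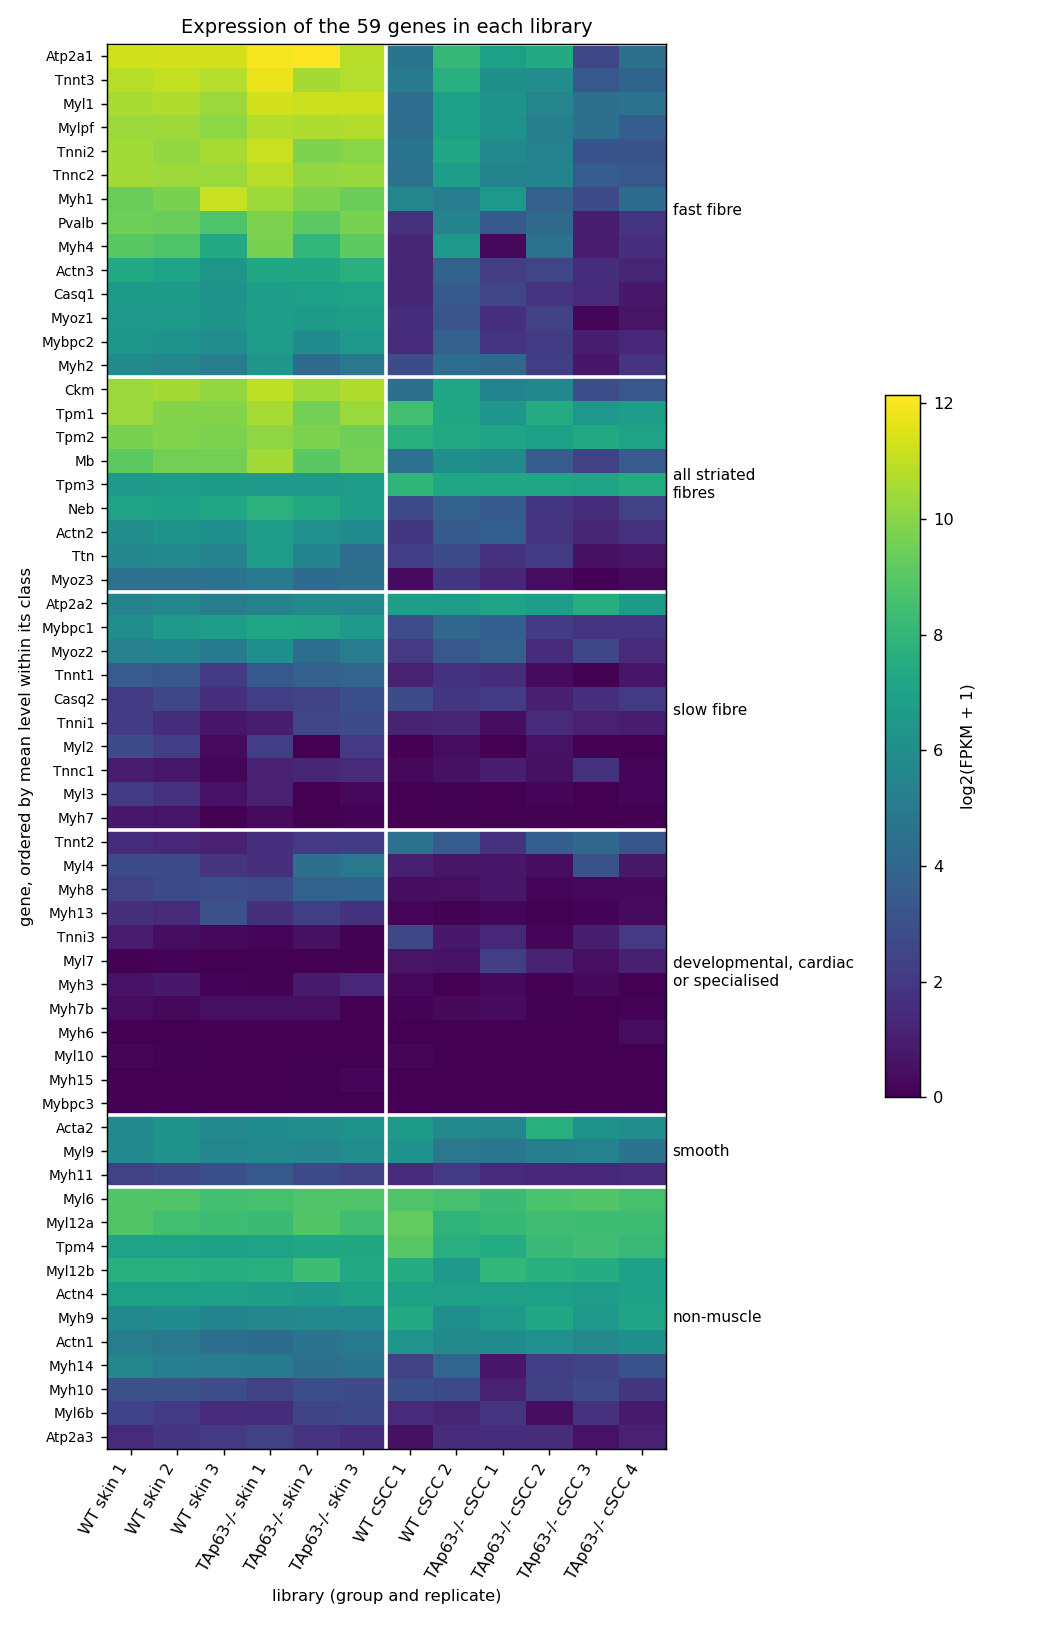
Level of the 59 genes (rows, ordered by mean level within each class) in the 12 libraries (columns), as log2(FPKM + 1) on the colour scale. Fast-fibre genes and most genes of all striated fibres are bright in the 6 skin libraries and dark in the 6 tumours, and Atp2a2, Tpm3, Tpm4, Myh9 and Actn1 show the opposite order.

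Between WT cSCC and WT skin, 30 of the 52 tested members changed, 5 higher and 25 lower. Over all tested genes 11.4% changed, 4.66% higher and 6.77% lower. Between TAp63-/- cSCC and TAp63-/- skin, 36 members changed, 6 higher and 30 lower, where 27.2% of all tested genes changed, 13.0% higher and 14.2% lower. The 25 members that fell in WT also fell in TAp63-/-, and Myh2, Myh4, Myh11, Myl4 and Tnnt1 fell in TAp63-/- alone, although the test of the difference between genotypes called no member. The WT count rests on the library WT cSCC replicate 1 and on the model: it was 12 without that library, which leaves 1 WT tumour assumed to vary like the other groups, and 3 with sex as a covariate, against 28 with sex for TAp63-/-. On leaving out each library of a comparison in turn, 11 of the 30 WT calls and 30 of the 36 TAp63-/- calls held each time. Those 11 were Actn3, Casq1, Mybpc2, Myh8, Myl1, Mylpf, Myoz1, Myoz3, Neb, Tnnc2 and Tpm2. Every other WT call given below, rise or fall, was lost at least once.

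Most calls fell on fast genes and on genes of all striated fibres. Of the 14 fast genes, 12 fell in WT (median log2 change -4.56, against 0.04 over all tested genes) and 14 fell in TAp63-/- (median -5.90, against 0.10). Of the 9 genes grouped under all striated fibres, 8 fell and 1, Tpm3, rose in both comparisons (medians -3.42 and -4.13). Of 9 tested slow genes, 2 fell and 1 rose in WT (median -1.44) and 3 fell and 1 rose in TAp63-/- (median -1.11). The 11 non-muscle genes had medians near 0, -0.03 with 2 risen and 1 fallen in WT and -0.18 with 3 risen and 1 fallen in TAp63-/-. With sex as a covariate, 0 of the 14 fast genes passed in WT, with a median of -3.13, and 12 passed in TAp63-/-, with a median of -4.82. The sex term of these fits rests on 1 male tumour. Without WT cSCC replicate 1, 7 fast genes passed in WT.

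**Figure D2:**
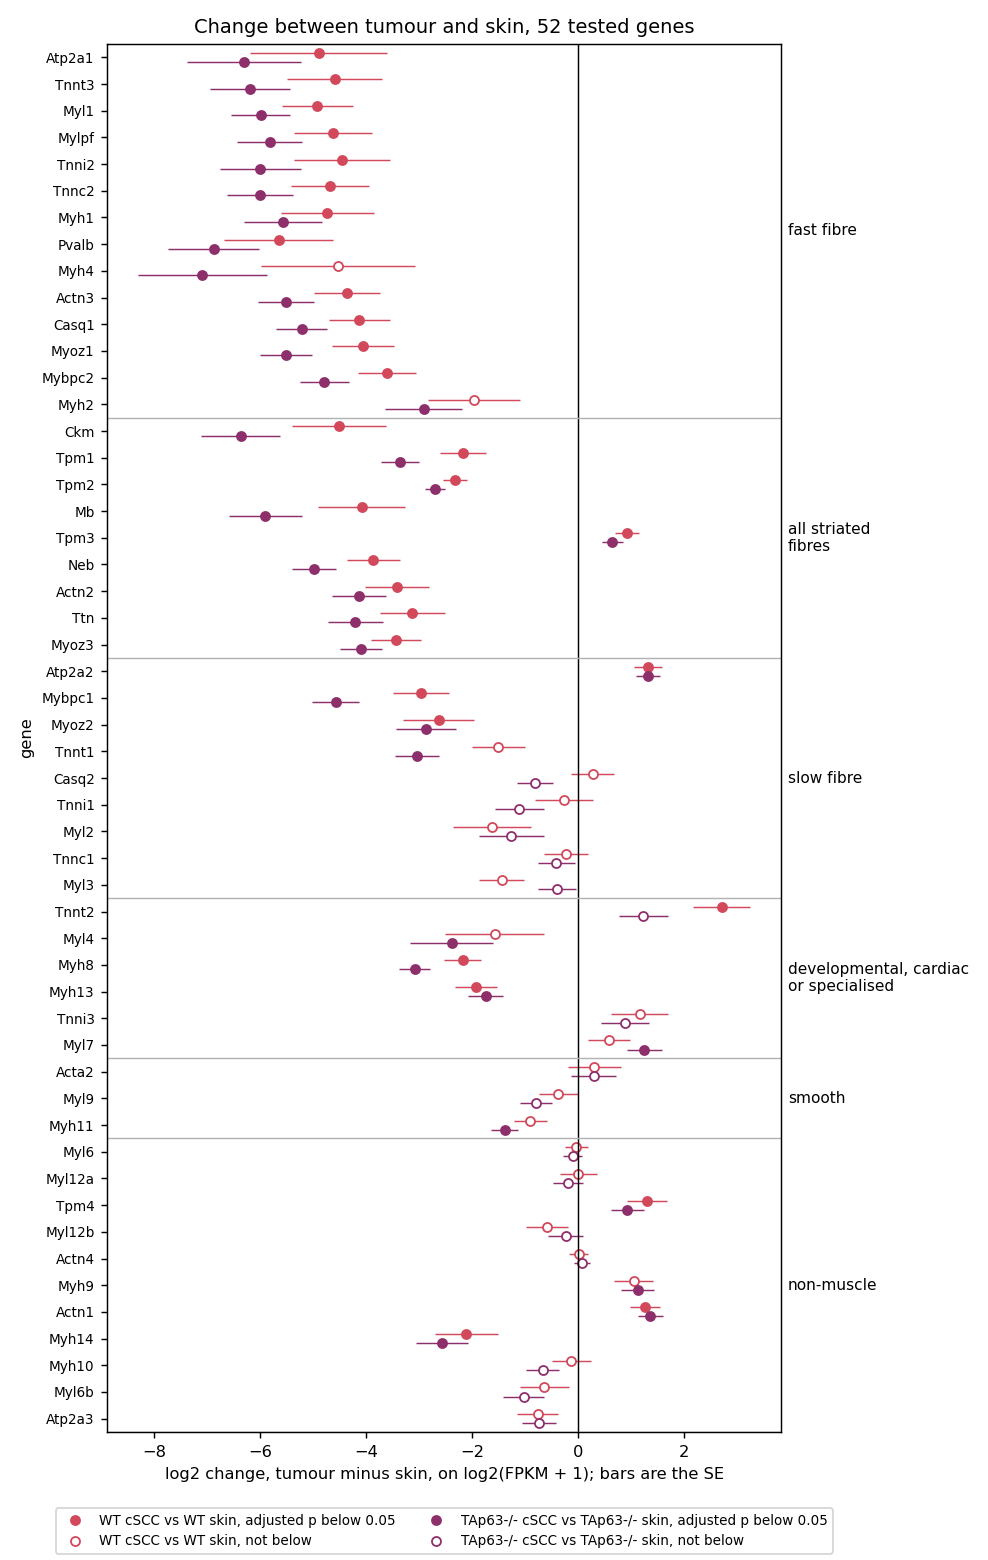
Change between tumour and skin for the 52 tested genes, in log2 units of FPKM + 1, with the standard error as bars; filled points have an adjusted p below 0.05. Fast-fibre genes lie to the left in both genotypes, between -1.96 and -7.09. Non-muscle genes lie on both sides of 0, with Actn1, Tpm4 and Myh9 to the right and Myh14 furthest to the left.

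The fast gene with the highest mean level was Atp2a1 (chr7:126445858-126463108), the calcium pump that returns calcium to the sarcoplasmic reticulum of fast fibres. It measured 2437, 2545 and 2545 FPKM in WT skin and 4069.8, 4510.2 and 1815 FPKM in TAp63-/- skin. In tumours it measured 25.6 and 267 FPKM in WT cSCC and 120.3, 170.4, 5.02 and 21.1 FPKM in TAp63-/- cSCC. All tumours lay below all skin libraries, and the skin mean was 29.4 times the tumour mean. Atp2a1 fell by 4.89 ± 1.29 (log2 change ± SE) in WT (adjusted p = 0.0346) and fell by 6.30 ± 1.08 in TAp63-/- (adjusted p = 0.00186).

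Tnnt3 (chr7:142498836-142516009), fast troponin T, which ties the troponin complex to tropomyosin, measured 1847, 2103 and 1756 FPKM in WT skin and 3493, 1447 and 1756 FPKM in TAp63-/- skin. Tumours held 31.3 and 192 FPKM in WT cSCC and 68.3, 61.6, 8.93 and 14.1 FPKM in TAp63-/- cSCC. TAp63-/- skin replicate 1 was the highest library, and again no tumour overlapped with skin. Tnnt3 fell by 4.59 ± 0.90 in WT (adjusted p = 0.00936) and fell by 6.19 ± 0.75 in TAp63-/- (adjusted p = 0.000212). Its partners Tnni2, the inhibitory subunit, and Tnnc2, the calcium-binding subunit, had skin means 29.2 and 34.3 times the tumour means.

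Myl1 (chr1:66924295-66945404), the essential light chain of fast myosin, measured 1525, 1678 and 1269 FPKM in WT skin and 2545, 2282 and 2282 FPKM in TAp63-/- skin. Tumours held 19.0 and 119.9 FPKM in WT cSCC and 77.0, 44.5, 21.2 and 23.6 FPKM in TAp63-/- cSCC. The 3 WT skin libraries lay below the 3 TAp63-/- skin libraries, and no tumour exceeded 119.9 FPKM. Myl1 fell by 4.91 ± 0.67 in WT (adjusted p = 0.00156) and fell by 5.99 ± 0.56 in TAp63-/- (adjusted p = 4.81e-05). Mylpf, the regulatory light chain of the same myosin, ran from 11.5 to 115 FPKM in cSCC against 1085 to 1699 FPKM in skin.

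Over the 14 fast genes the ratio of the skin mean to the tumour mean ran from 5.47 (Myh2) to 54.1 (Pvalb, a cytosolic calcium buffer of fast fibres), with a median of 31.8. Leaving out WT cSCC replicate 2, which carried the highest fast-gene levels of the tumours, gave a range of 7.81 to 101.9 and a median of 51.8. Actn3 (fast alpha-actinin of the Z-disc) measured 1.42, 2.80 and 13.8 FPKM in cSCC and 84.3, 153 and 205 FPKM in skin (lowest, median and highest). For Casq1, the calcium store protein of fast fibres, these values were 0.765, 2.25 and 9.79 FPKM in cSCC and 73.9, 102.7 and 128 FPKM in skin, and for Pvalb 1.003, 6.20 and 41.5 FPKM in cSCC and 439, 688 and 846 FPKM in skin. Of the 14 fast genes 13 did not overlap between the 6 cSCC and the 6 skin libraries, while 10.9% of all tested genes lay wholly lower in cSCC. The exception was Myh2, at 0.667 to 20.2 FPKM in cSCC against 17.7 to 78.9 FPKM in skin.

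The 3 adult fast myosin heavy chain genes together summed to 1155 to 2430 FPKM in skin and 7.04 to 142.8 FPKM in tumours. Within each group the mix of Myh1 and Myh4 varied widely. Myh4 took 42.0%, 34.3% and 6.82% of the sum in WT skin and 37.0%, 21.8% and 44.6% in TAp63-/- skin. In tumours it took 2.67% and 62.5% in WT and 0.213%, 59.2%, 12.6% and 8.81% in TAp63-/-. WT cSCC replicate 2 and TAp63-/- cSCC replicate 2 were thus mostly Myh4 and the other 4 tumours mostly Myh1. The share of Myh2 was 10.9% and 14.1% in WT cSCC and 15.1%, 9.43%, 9.47% and 11.4% in TAp63-/- cSCC, against 4.60%, 3.67% and 1.43% in WT skin and 3.55%, 1.53% and 2.20% in TAp63-/- skin. The Myh2 share of each tumour was above that of each skin library; it was picked out after its values were seen and was not tested. These shares carry an uncertainty of assignment, since 26.9% of the 50-base stretches of Myh2 transcripts, 25.4% of those of Myh1 and 18.9% of those of Myh4 also occur in another member.

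**Figure D3:**
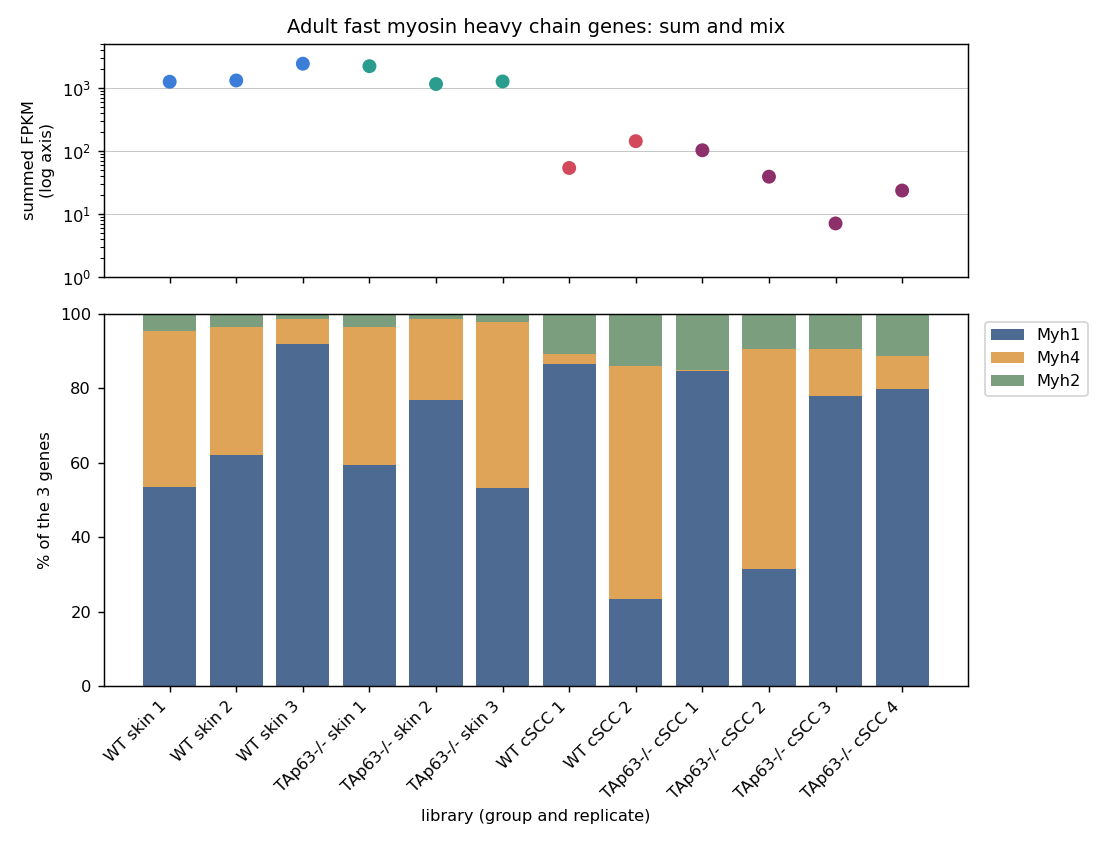
Summed FPKM of Myh1, Myh2 and Myh4 in each library (upper panel, points, log axis) and the percent of that sum from each gene (lower panel, stacked bars). The sum is lower in each tumour than in each skin library, and the Myh2 part at the top of the bars is 9.43% or more in tumours and 4.60% or less in skin.

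Among genes used in all striated fibres, Ckm (chr7:19411094-19421583), the muscle creatine kinase that buffers ATP, measured 1288, 1461 and 1158 FPKM in WT skin and 2031, 1335 and 1678 FPKM in TAp63-/- skin. Tumours held 21.4 and 144 FPKM in WT cSCC and 43.7, 49.5, 6.31 and 8.95 FPKM in TAp63-/- cSCC. No library overlapped, and Ckm fell by 4.51 ± 0.89 in WT (adjusted p = 0.00969) and fell by 6.36 ± 0.74 in TAp63-/- (adjusted p = 0.000169). Mb, the oxygen-binding myoglobin, fell likewise, with a skin mean 27.9 times the tumour mean. Neb and Ttn, the giant ruler and spring proteins of the sarcomere, had ratios of 24.3 and 18.7, and Myoz3, a Z-disc protein, 27.1. Actn2, the alpha-actinin of Z-discs in all striated fibres, ran from 1.45 to 11.2 FPKM in cSCC against 59.4 to 102 FPKM in skin and fell in both comparisons.

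The tropomyosins, which lie along the actin filament, behaved differently from each other. Tpm1 (chr9:67022590-67049406) measured 1257, 936 and 936 FPKM in WT skin and 1493, 756 and 1288 FPKM in TAp63-/- skin. In tumours it held 348 and 151 FPKM in WT cSCC and 83.2, 178, 88.2 and 111 FPKM in TAp63-/- cSCC. Tpm2 (chr4:43514711-43523765) measured 831, 925 and 868 FPKM in WT skin and 1116, 862 and 730.4 FPKM in TAp63-/- skin, and 192 and 159 FPKM in WT cSCC and 137, 120.1, 167 and 128 FPKM in TAp63-/- cSCC. Both lay wholly lower in tumours but kept levels of 83.2 FPKM or more there, and skin means were only 6.95 and 5.91 times the tumour means. Tpm1 fell by 2.16 ± 0.43 in WT (adjusted p = 0.00998) and fell by 3.36 ± 0.36 in TAp63-/- (adjusted p = 0.000102); Tpm2 fell by 2.32 ± 0.23 (adjusted p = 0.000347) and fell by 2.69 ± 0.19 (adjusted p = 1.07e-05). Both genes also make non-muscle or smooth muscle isoforms, which values per gene do not separate. Tpm3, whose gene gives a slow-fibre and a cytoskeletal tropomyosin, went the other way, at 126 to 245 FPKM in cSCC against 90.7 to 104 FPKM in skin, and rose by 0.94 ± 0.23 in WT (adjusted p = 0.0255) and rose by 0.65 ± 0.19 in TAp63-/- (adjusted p = 0.028), both lost when a library was left out.

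Slow-fibre genes were low in skin, with 3 exceptions. Atp2a2 (chr5:122442702-122502225), the calcium pump of slow fibres and heart that is also the housekeeping pump of other cells, keratinocytes included, measured 40.0, 48.1 and 34.4 FPKM in WT skin and 42.6, 55.2 and 51.9 FPKM in TAp63-/- skin. Tumours held 106 and 99.7 FPKM in WT cSCC and 129, 111, 186 and 95.9 FPKM in TAp63-/- cSCC. Each tumour was above each skin library. Atp2a2 rose by 1.32 ± 0.27 in WT (adjusted p = 0.011) and rose by 1.33 ± 0.22 in TAp63-/- (adjusted p = 0.00165), against the direction of its class. The WT call was lost when a library was left out.

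Mybpc1 (chr10:88518279-88605152), the slow myosin-binding protein C of the thick filament, measured 65.5, 90.6 and 106 FPKM in WT skin and 140.5, 136 and 91.5 FPKM in TAp63-/- skin. Tumours held 6.29 and 16.0 FPKM in WT cSCC and 11.2, 3.42, 2.59 and 2.52 FPKM in TAp63-/- cSCC. Its skin level was close to that of its fast counterpart Mybpc2 (59.5 to 103.3 FPKM). Mybpc1 fell by 2.96 ± 0.53 in WT (adjusted p = 0.00611) and fell by 4.57 ± 0.44 in TAp63-/- (adjusted p = 5.37e-05). Myoz2 (chr3:123006206-123034990), the slow-fibre Z-disc protein that binds calcineurin, measured 38.3, 43.4 and 32.0 FPKM in WT skin and 67.0, 19.8 and 34.3 FPKM in TAp63-/- skin. Tumours held 3.00 and 8.78 FPKM in WT cSCC and 12.3, 1.95, 5.01 and 1.78 FPKM in TAp63-/- cSCC, all below skin. Myoz2 fell by 2.63 ± 0.68 (adjusted p = 0.0311) and fell by 2.86 ± 0.57 (adjusted p = 0.00411).

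The other slow genes were low. Myh7, the slow myosin heavy chain, reached at most 0.79 FPKM in any library. Myl2, the slow regulatory light chain, ran from 0 to 0.510 FPKM in cSCC against 0 to 6.15 FPKM in skin, and Myl3, the slow essential light chain, from 0 to 0.107 FPKM in cSCC against 0 to 3.32 FPKM in skin. The slow troponins Tnnc1, Tnni1 and Tnnt1 measured at most 1.69, 6.13 and 14.5 FPKM in skin. Tnnt1 was the only one of these 6 that fell, in TAp63-/- alone, by 3.03 ± 0.41 (adjusted p = 0.000447).

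The slow share, the slow isoform as a percent of slow plus fast FPKM of a pair, was compared between the 6 cSCC and the 6 skin libraries by an exact two-sided permutation test of the means, with p-values adjusted over the 10 pairs. It passed in 6 pairs, 5 of them with a higher share in cSCC and the Myh7 pair with a lower share. Myh7 did not pass the filter and lay near 0 FPKM, so for that pair the test cannot show a lower share. A share also rises when the fast gene alone falls, and cells other than muscle fibres express Atp2a2. The share is therefore no measure of fibre type here, and fibre type was not tested. For the calcium pumps (Atp2a2 of Atp2a2 + Atp2a1) the share was 80.5 and 27.2% in WT cSCC and 51.7, 39.4, 97.4 and 82.0% in TAp63-/- cSCC. In skin it was 1.62, 1.86 and 1.33% in WT skin and 1.04, 1.21 and 2.78% in TAp63-/- skin. The groups did not overlap, with means of 63.0% ± 27.6 (SD, n = 6) and 1.64% ± 0.631 (SD, n = 6) and an adjusted exact permutation p of 0.00541. The unadjusted p of 0.00216 is the smallest that 924 permutations can give, and 4 pairs reached it.

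For calsequestrin (Casq2 of Casq2 + Casq1) the share was 22.6%, 47.7% and 80.8% in cSCC (lowest, median and highest) and 2.85%, 3.41% and 5.12% in skin. The slow partner itself overlapped between tissues, with Casq2 at 1.13 to 6.04 FPKM in cSCC against 2.17 to 6.90 FPKM in skin, and limma called it in neither comparison. The adjusted exact permutation p was 0.00541. The pair sum reached 10 FPKM in 1 tumour for Casq2/Casq1 and in 2 tumours for Myoz2/Myoz1. For the inhibitory troponins (Tnni1 of Tnni1 + Tnni2) the share was 0.690%, 4.67% and 13.5% in cSCC and 0.0405%, 0.215% and 0.608% in skin (adjusted exact permutation p = 0.00541). For troponin C (Tnnc1 of Tnnc1 + Tnnc2) it was 0.404%, 1.17% and 19.1% against 0.0102%, 0.0651% and 0.137%, with the same p. That call ended on leaving out any 1 skin library (adjusted exact permutation p between 0.122 and 0.159), although tumour and skin still did not overlap. The test compares means, and the cSCC mean was carried by the 19.1% of TAp63-/- cSCC replicate 3, where the next tumour had 2.29%. Tnnc1 and Tnni1 lay at or below 2.46 and 1.78 FPKM in tumours, and limma called neither, while both fast partners fell.

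For the Z-disc proteins (Myoz2 of Myoz2 + Myoz1) the share was 60.3 and 51.8% in WT cSCC and 84.5, 32.5, 96.7 and 75.4% in TAp63-/- cSCC. In skin it was 30.5, 31.4 and 29.5% in WT skin and 37.8, 16.9 and 23.5% in TAp63-/- skin. The groups overlapped through TAp63-/- cSCC replicate 2 (adjusted exact permutation p = 0.00866). The share of Myh7 in the adult heavy chains was at most 0.0629% in skin and 0.000109% in cSCC (adjusted exact permutation p = 0.0253), a call lost without any 1 tumour library (0.0920 to 0.123). The pair sum was 7.04 to 142.8 FPKM in tumours, where even the highest skin share would put Myh7 near 0 FPKM. The test therefore cannot tell a lower share from a level too low to be read. The shares of Mybpc1 (50.9% to 81.6% in cSCC, 43.9% to 69.5% in skin; adjusted exact permutation p = 0.173) and Tnnt1 (0% to 4.63%, and 0.183% to 0.875%; p = 0.108) missed the threshold, although Tnnt1 passed without TAp63-/- cSCC replicate 2 or 3 (0.0469 and 0.0180) and at a pair sum of at least 10 FPKM (0.0271). Also above it were the adjusted p-values of Myl2 and Myl3 (0.911 and 0.712). Between TAp63-/- and WT skin 0 of the 10 shares passed (adjusted exact permutation p from 0.625 to 1), and 3 libraries against 3 cannot give an exact p below 0.1.

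**Figure D4:**
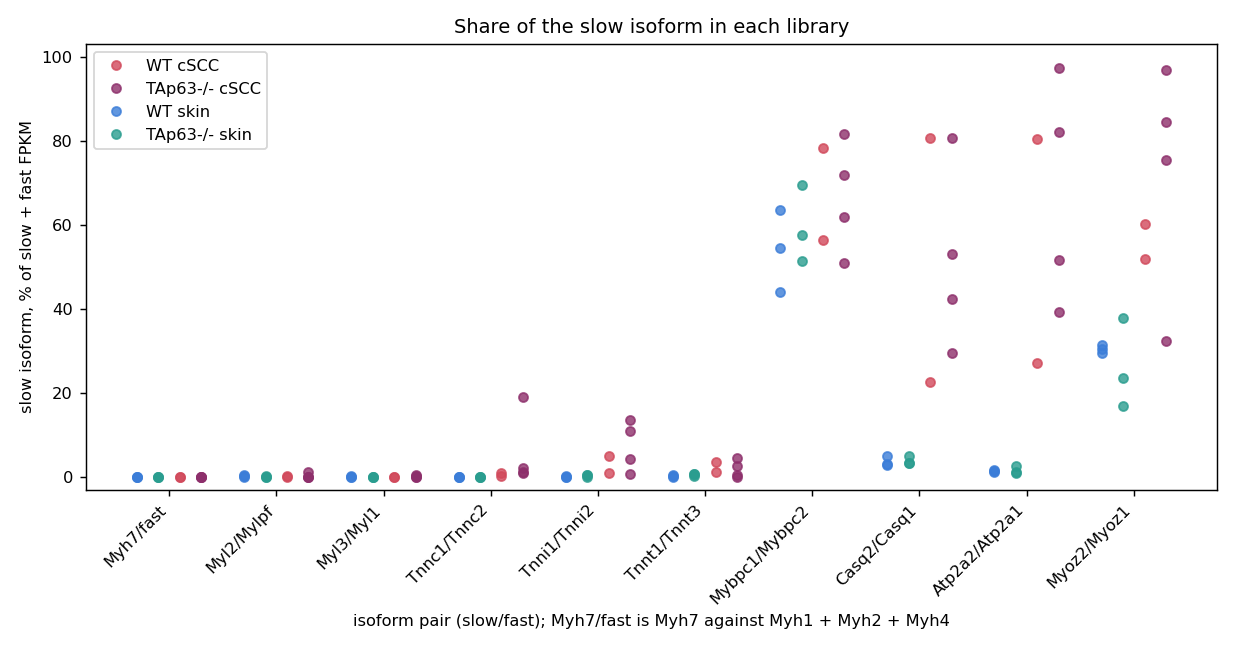
Slow isoform as a percent of slow plus fast FPKM for the 10 isoform pairs, 1 point per library, coloured by group. The tumour points of Casq2/Casq1 (22.6% to 80.8%) and Atp2a2/Atp2a1 (27.2% to 97.4%) lie apart from skin, while those of Mybpc1/Mybpc2 overlap with it.

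Of the 12 developmental, cardiac or specialised isoforms, 6 were tested. Tnnt2 (chr1:135836386-135852260), cardiac troponin T, which embryonic skeletal muscle also uses, measured 1.98, 1.55 and 1.18 FPKM in WT skin and 2.11, 3.07 and 3.44 FPKM in TAp63-/- skin. Tumours held 23.0 and 10.7 FPKM in WT cSCC and 2.46, 11.5, 15.2 and 8.46 FPKM in TAp63-/- cSCC. It rose by 2.71 ± 0.55 in WT (adjusted p = 0.0106), a call lost when a library was left out. The change in TAp63-/- was 1.24 ± 0.46 (adjusted p = 0.0663), with TAp63-/- cSCC replicate 1 inside the skin range. Myl7, the atrial regulatory light chain, was listed at 0 in 5 of 6 skin libraries and ran from 0.420 to 3.76 FPKM in cSCC. Having entered the test through cSCC alone, Myl7 is given as higher in TAp63-/- (adjusted p = 0.017) only as a description, and the call was lost when a library was left out. Tnni3, cardiac troponin I, ran from 0.173 to 4.95 FPKM in cSCC against 0.0585 to 0.883 FPKM in skin with no call.

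Myl4 (chr11:104550663-104595753), the light chain of embryonic muscle and atrium, measured 5.77, 6.06 and 2.56 FPKM in WT skin and 2.21, 21.1 and 28.4 FPKM in TAp63-/- skin. Tumours held 1.10 and 0.659 FPKM in WT cSCC and 0.689, 0.384, 7.65 and 0.784 FPKM in TAp63-/- cSCC. TAp63-/- skin replicates 2 and 3 were the highest and TAp63-/- skin replicate 1 the lowest of the 6 skin libraries. Myl4 fell in TAp63-/- by 2.38 ± 0.78 (adjusted p = 0.0435), a call lost when a library was left out. The perinatal heavy chain Myh8 (chr11:67277124-67308634) measured 4.01, 5.71 and 6.35 FPKM in WT skin and 5.37, 12.8 and 14.02 FPKM in TAp63-/- skin, with the same 2 libraries highest. Tumours held 0.371 and 0.418 FPKM in WT cSCC and 0.643, 0.155, 0.208 and 0.225 FPKM in TAp63-/- cSCC. Myh8 fell by 2.17 ± 0.35 in WT (adjusted p = 0.00364) and fell by 3.08 ± 0.29 in TAp63-/- (adjusted p = 4.87e-05), and Myh13 fell in both. As Myh8 and Myh13 entered the test through skin alone, where they are high, these falls are descriptions. Their levels also carry an uncertainty of assignment, as those of Myh1, Myh2 and Myh4 do. Of the stretches of Myh8 transcripts 16.7% also occur in another member, and of those of Myh13 8.26%. Myh1 measured 671 to 2230 FPKM in skin. The part of shared stretches in the Myh8 and Myh13 levels was not tested. Myh3, Myh7b, Myh6, Myl10, Myh15 and Mybpc3 stayed at or below 1.54 FPKM in all libraries.

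Of the 3 smooth muscle members, 0 changed in WT and 1 fell in TAp63-/-. Acta2 (chr19:34241090-34255336), smooth muscle actin, measured 53.8, 75.7 and 51.7 FPKM in WT skin and 59.1, 63.1 and 72.7 FPKM in TAp63-/- skin. Tumours held 98.6 and 55.8 FPKM in WT cSCC and 47.0, 199.8, 71.0 and 60.5 FPKM in TAp63-/- cSCC. The groups overlapped, TAp63-/- cSCC replicate 2 stood above all others, and the adjusted p was 0.728 in WT and 0.63 in TAp63-/-. Myl9 (chr2:156775420-156781658), the smooth muscle regulatory light chain, measured 55.8, 71.3 and 47.1 FPKM in WT skin and 52.2, 48.6 and 60.4 FPKM in TAp63-/- skin, and 70.8 and 27.5 FPKM in WT cSCC and 25.8, 36.0, 38.9 and 23.7 FPKM in TAp63-/- cSCC (adjusted p = 0.552 and 0.0735). Myh11 (chr16:14194527-14291408), the smooth muscle heavy chain, measured 4.31, 5.13 and 6.81 FPKM in WT skin and 9.75, 5.34 and 4.12 FPKM in TAp63-/- skin. Tumours held 1.74 and 3.23 FPKM in WT cSCC and 1.82, 1.64, 1.53 and 1.82 FPKM in TAp63-/- cSCC, all below skin. Myh11 fell by 1.38 ± 0.26 in TAp63-/- (adjusted p = 0.0033), and its change in WT was -0.90 ± 0.31 (adjusted p = 0.0903). Smooth muscle and pericyte markers (Tagln, Cnn1, Smtn, Lmod1, Mylk, Synpo2, Myocd, Rgs5 and Pdgfrb) summed to 76.6 to 118.8 FPKM in cSCC and 127.2 to 153.3 FPKM in skin. Synpo2 ran from 2.70 to 7.10 FPKM in cSCC against 25.5 to 47.4 FPKM in skin, and without it the sums would overlap. Tagln, Cnn1, Smtn, Rgs5 and Pdgfrb each overlapped between tumour and skin. Of the 9 markers, 2 fell in WT and 3 in TAp63-/-, where 6.77% and 14.2% of all tested genes fell. The part of these markers in the changes above was not tested.

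The 2 most abundant non-muscle members overlapped between tumour and skin. Myl6 (chr10:128490860-128493875), the essential light chain of non-muscle and smooth muscle myosin, measured 454, 465.5 and 359 FPKM in WT skin and 387, 443 and 437 FPKM in TAp63-/- skin. Tumours held 439 and 391 FPKM in WT cSCC and 311, 422, 463 and 393 FPKM in TAp63-/- cSCC. The changes were -0.03 ± 0.22 in WT (adjusted p = 0.948) and -0.10 ± 0.18 in TAp63-/- (adjusted p = 0.721). Myl12a (chr17:70993656-71002878), a regulatory light chain of non-muscle myosin, measured 459, 350.3 and 330.3 FPKM in WT skin and 304, 459 and 338 FPKM in TAp63-/- skin, and 598 and 239 FPKM in WT cSCC and 279, 342, 325 and 332 FPKM in TAp63-/- cSCC (adjusted p = 0.993 and 0.676). Myl12a shares 6.55% of its 50-base stretches with Myl12b, so their split is uncertain. Actn4, a cytoskeletal alpha-actinin, ran from 100.9 to 123 FPKM in cSCC against 92.8 to 124 FPKM in skin. Myl12b ran from 93.5 to 263 FPKM in cSCC against 159 to 334 FPKM in skin. Myl6b, a further essential light chain, ran from 0.380 to 2.58 FPKM in cSCC against 1.87 to 5.17 FPKM in skin, and Atp2a3, the calcium pump of non-muscle cells, from 0.479 to 1.95 FPKM in cSCC against 1.72 to 4.20 FPKM in skin. Limma called none of these 4 genes in either comparison.

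Tpm4, Actn1 and Myh9 were higher in tumours, without overlap. Tpm4 (chr8:72134975-72153142), a cytoskeletal tropomyosin, measured 125, 132 and 121 FPKM in WT skin and 129, 145 and 149 FPKM in TAp63-/- skin. Tumours held 509.5 and 193 FPKM in WT cSCC and 178, 289, 346 and 303 FPKM in TAp63-/- cSCC. It rose by 1.31 ± 0.37 in WT (adjusted p = 0.0458) and rose by 0.94 ± 0.31 in TAp63-/- (adjusted p = 0.0458), both lost when a library was left out. Actn1, the alpha-actinin of stress fibres and adhesions, ran from 51.1 to 80.6 FPKM in cSCC against 18.5 to 33.9 FPKM in skin. It rose by 1.27 ± 0.28 in WT (adjusted p = 0.0151), a call lost when a library was left out, and by 1.37 ± 0.23 in TAp63-/- (adjusted p = 0.0016). Myh9, the heavy chain of non-muscle myosin IIA, ran from 66.1 to 172 FPKM in cSCC against 44.2 to 57.9 FPKM in skin and rose in TAp63-/- (adjusted p = 0.0201; 0.0893 in WT), a call lost when a library was left out. The heavy chains were not alike: Myh14, of non-muscle myosin IIC, fell in both comparisons, from 21.1 to 44.3 FPKM in skin to 0.657 to 14.5 FPKM in cSCC, and Myh10, of IIB, ran from 1.19 to 6.83 FPKM in cSCC against 4.21 to 7.04 FPKM in skin with no call. Over the 59 members, 6 lay wholly higher in cSCC, where 11.0% of all tested genes did, and 28 wholly lower, where 10.9% did. The count of higher members was thus near the share over all tested genes. The 7 members that were not tested all overlapped. Keratinocyte markers (Krt5, Krt14, Krt1, Krt10, Dsp and Perp) summed to 9594 to 25077 FPKM in cSCC and 6299 to 10507 FPKM in skin. Of these 6, 1 rose in WT, and 2 rose and 1 fell in TAp63-/-. Of all tested genes, 4.66% rose in WT, and 13.0% rose and 14.2% fell in TAp63-/-. The part of these markers in the non-muscle changes was not tested.

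**Figure D5:**
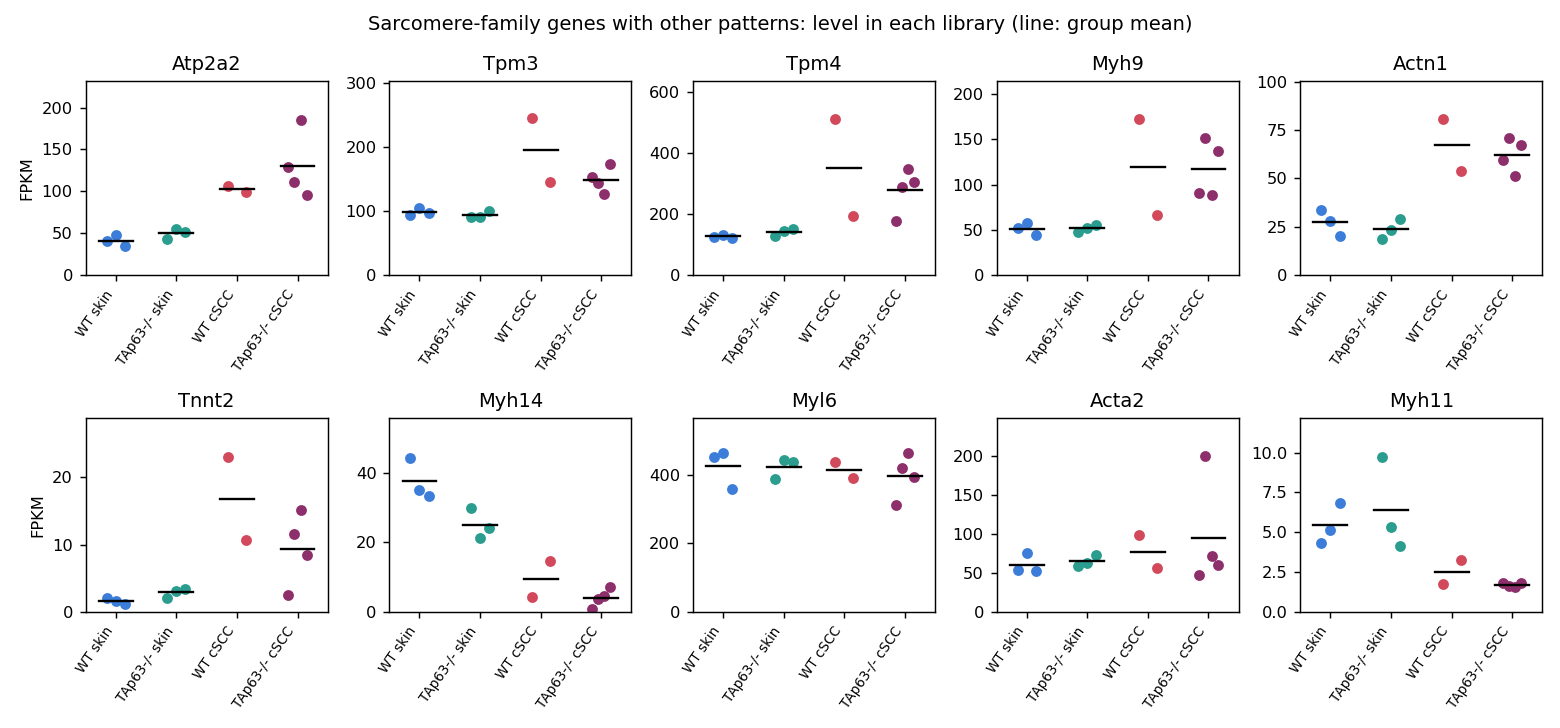
FPKM of 10 members with patterns other than that of the fast genes, 1 point per library, with group means as lines, on axes from 0. Atp2a2, Tpm3, Tpm4, Myh9 and Actn1 are higher in each tumour than in each skin library, Myh14 and Myh11 are lower, and Myl6 and Acta2 overlap.

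Fibre genes outside the family rule moved with the fast genes. They were chosen with earlier results of these data known, so their counts are descriptions. Of all tested genes, 6.77% fell in WT and 14.2% in TAp63-/-. All 30 of a list of Z-disc, M-band, triad and muscle metabolism genes fell in both comparisons, with median log2 changes of -3.29 in WT and -4.49 in TAp63-/-; in WT, 18 fell without WT cSCC replicate 1 and 7 with sex as a covariate. The 3 with the highest mean level were Tcap (telethonin, which caps titin at the Z-disc), Eno3 (muscle enolase) and Cox6a2 (the muscle subunit of cytochrome oxidase). Tcap measured 428, 439 and 431 FPKM in WT skin and 545, 447 and 303 FPKM in TAp63-/- skin, and 9.04 and 23.6 FPKM in WT cSCC and 21.9, 22.3, 2.74 and 2.60 FPKM in TAp63-/- cSCC. Eno3 fell by 3.96 ± 0.56 in WT (adjusted p = 0.00202) and fell by 5.72 ± 0.47 in TAp63-/- (adjusted p = 2.27e-05), and Cox6a2 fell by 3.94 ± 0.88 (adjusted p = 0.0174) and fell by 4.70 ± 0.74 (adjusted p = 0.00105). Of 8 myogenic transcription factors and coactivators 6 were tested; 4 fell in WT and 6 in TAp63-/-. Mef2c, which binds the MEF2 site, measured 29.0, 35.6 and 37.9 FPKM in WT skin and 46.4, 56.0 and 40.8 FPKM in TAp63-/- skin, and 3.41 and 5.73 FPKM in WT cSCC and 5.64, 3.43, 3.60 and 3.91 FPKM in TAp63-/- cSCC. Myf6, the factor of mature fibres, fell by 2.62 ± 0.38 (adjusted p = 0.00209) and fell by 3.67 ± 0.32 (adjusted p = 2.63e-05).

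Some markers of other cell types also changed, where 6.77% of all tested genes fell in WT and 14.2% in TAp63-/-. Fibroblast markers (Col1a1, Col1a2, Col3a1, Dcn, Lum and Pdgfra) summed to 778.7 to 2537 FPKM in cSCC and 2269 to 8502 FPKM in skin, with 2 of 6 fallen in WT and 5 in TAp63-/-. Adipocyte markers (Fabp4, Adipoq, Cidec and Plin1) summed to 52.5 to 2651 FPKM in cSCC and 420.0 to 2480 FPKM in skin, with 2 and 3 of 4 fallen, sums carried by Fabp4. Adipoq, Plin1 and Cidec each lay wholly lower in cSCC, at most 25.3, 5.76 and 18.4 FPKM there and at least 37.2, 10.4 and 20.0 FPKM in skin. The median log2 change of the adipocyte markers was -3.37 in WT and -3.92 in TAp63-/-, carried by Adipoq, Plin1 and Cidec. Fabp4 measured 1390 and 1349 FPKM in WT cSCC against 1137, 1101 and 1011 FPKM in WT skin. In TAp63-/- it ran from 51.8 to 2639 FPKM in cSCC against 352 to 1969 FPKM in skin. Between TAp63-/- and WT skin the adipocyte median was -0.67, against 0.30 for the fast genes, with 0 adipocyte markers called. Endothelium markers (Pecam1, Cdh5, Kdr and Tek) overlapped in their sums, at 29.99 to 41.7 FPKM in cSCC and 28.2 to 48.3 FPKM in skin. Their median log2 changes were 0.11 in WT and 0.07 in TAp63-/-, with 0 and 1 of 4 fallen. The part of these 3 sets in the muscle changes was not tested.

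Genotype was compared within each tissue. Between TAp63-/- and WT skin, limma called 0 of the 52 members, where 0.0203% of all tested genes were called. An unadjusted p below 0.05 was found for 7 members (13.5%) and for 738 of all tested genes (5%). Those 7 were Myl1, Mylpf, Casq1, Myoz1, Tnnc1 and Tnnt2, higher in TAp63-/- skin, and Myh14, lower, all with an adjusted p of 0.923. The 14 fast genes had a median log2 change of 0.30, against 0.02 over all tested genes. TAp63-/- skin replicate 1 was the highest of the 6 skin libraries for 9 of 14 fast genes and 8 of 9 genes of all striated fibres.

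Between TAp63-/- and WT cSCC, limma called 0 members with 0% of all tested genes called, and 0 had an unadjusted p below 0.05, against 2.84% of all tested genes. All 14 fast genes were lower on average in TAp63-/- cSCC, with a median of -1.05, but without WT cSCC replicate 2 the median was 0.26. The interaction of genotype and tissue called 0 members (0.0271% of all tested genes), with an unadjusted p below 0.05 for Mybpc1 and Tnnt1 (adjusted p = 0.9998 for both), 3.85% of the members against 3.01% of all tested genes. Fits with array weights called 0 members in these 3 comparisons as well.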

How the data were processed

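Gene expression was measured by RNA sequencing of total RNA, per the labels with the Ambion miRVANA and Illumina TruSeq kits. Reads were processed with TopHat2 2.0 and Cufflinks 2.0 against mm10, as the submitters' processing notes list them, that is per the labels. The deposited values were taken as FPKM made by the authors; that unit and a quantile normalization were inferred from the values, since 98.9% to 100% of each library's values lay within 1% of a common distribution. Depth is therefore unknown, and equal values recur across genes and libraries.

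The table holds 37924 entries for 34303 symbols; entries of the 272 repeated symbols were summed. log2(FPKM + 1) was the input to limma 3.58.1 (run in R 4.3.3; mean-variance trend, moderated statistics), for genes at 1 FPKM or more in 2 libraries. Genotype comparisons used the 6 libraries of the tissue, and tumour-skin comparisons and the interaction used all 12. P-values are two-sided and adjusted over all tested genes, and every adjusted p of a gene is limma's. The procedure was tested on simulated data. Slow shares used exact permutation tests on libraries with a pair sum of at least 1 FPKM, in Python 3.11.15.

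The members and lists were chosen with earlier results of these data known. Given in full are the 3 members per class with the highest mean, the isoform pairs by their share, and members called against their class; the 3 highest fibre genes outside the family rule and myogenic factors are named, except 1 that is not reported here. Coordinates are mm10, with starts counted from 1, and strand and shared stretches come from GENCODE M21. Alternatives covered pseudocount, filter, rescaling, library weights, libraries in the fit, sex and each library left out.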

Additional observations from a re-analysis of the deposited data

Results flagged for a closer look

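Within the 4 TAp63-/- cSCC libraries, 6 of 27 values tested had 1 library far from the other 3, by a test that flags about 1 in 20 groups by chance. Myl4 was 7.65 FPKM in replicate 3, where the next highest library had 0.784 FPKM. Acta2 was 199.8 FPKM in replicate 2, where the next had 71.0 FPKM. Mybpc1 was 11.2 FPKM in replicate 1 against 3.42 FPKM, and Myh8 0.643 FPKM in replicate 1 against 0.225 FPKM. The slow share of Tnnc1/Tnnc2 was 19.1% in replicate 3 against 2.29%, and that of Myl2/Mylpf was 1.39% in replicate 2 against 0% in the other 3.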

How the results depend on the processing

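No paired analysis was possible because the titles number each library separately and the groups share no replicate numbers. The count of members called between WT cSCC and WT skin was 30, 3 with sex as a covariate and 12 to 32 on leaving out each library; the other alternatives gave 26 to 31. Between TAp63-/- cSCC and TAp63-/- skin it was 36, 32 to 37 on leaving out each library and 28 to 41 otherwise. Both genotype comparisons and the interaction gave 0 throughout. Of the log2 changes under alternatives, 394 kept direction and side of the threshold, 53 lost the call, 6 gained it and 15 reversed. Reversals without a library left out were Myl12a in WT (-0.037 with median-of-ratios rescaling, -0.25 with sex), Acta2 with sex (-0.69 in WT, -0.45 in TAp63-/-) and Tnnt2 in TAp63-/- with sex (-0.15). On leaving out each library in turn, the log2 changes that reversed ran as follows: Myl6 in WT -0.15 to 0.053, Myl12a in WT -0.65 to 0.67, Acta2 in WT -0.091 to 0.72, Myl9 in WT -1.03 to 0.30, Myl6 in TAp63-/- -0.18 to 0.012, Acta2 in TAp63-/- -0.14 to 0.55. The differences in slow share that reversed, in percentage points, ran as follows: Myl2/Mylpf (cSCC minus skin) -0.140 to 0.138, Myl3/Myl1 (cSCC minus skin) -0.0195 to 0.0741, Casq2/Casq1 (TAp63-/- minus WT skin) -0.235 to 0.995, Atp2a2/Atp2a1 (TAp63-/- minus WT skin) -0.480 to 0.392, Myoz2/Myoz1 (TAp63-/- minus WT skin) -10.3 to 0.195. The number of isoform pairs with a called slow share was 6, and 5 to 6 on leaving out each library. At a pair sum of at least 10 FPKM it was 4, but Casq2/Casq1 then kept 1 tumour and Myoz2/Myoz1 and Mybpc1/Mybpc2 2 each, where exact p-values before adjustment cannot go below 0.143 and 0.0357, so for these pairs that minimum tests nothing. The causes were not tested. Unknown depth limits the genes near 0 FPKM, which include most slow members.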

Other observations

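The factors of early muscle differentiation, named here after their values were seen, stood higher in TAp63-/- skin. Myod1 measured 1.35, 2.07 and 1.83 FPKM in WT skin and 4.42, 4.36 and 7.40 FPKM in TAp63-/- skin, without overlap, a log2 difference of 1.19 ± 0.22 (SE), with a limma adjusted p of 0.831. Myog measured 1.58, 2.01 and 1.24 FPKM in WT skin and 2.40, 6.69 and 4.18 FPKM in TAp63-/- skin, also without overlap, a difference of 0.98 ± 0.31 (adjusted p = 0.923). Neither passed the threshold over all tested genes. Myog and Myl4 were both highest among TAp63-/- cSCC libraries in replicate 3, where Myog was 1.72 FPKM.

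Atp2a1 was listed at 2545 FPKM in both WT skin replicates 2 and 3, and Tpm1 at 936 FPKM in the same 2 libraries, equalities that go with the common distribution of values.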
